A study of Mus musculus with 8 samples.

Results

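The 10 genes described here are typical of the endothelium of brain vessels and of the blood-brain barrier: Cldn5, Slc2a1, Flt1, Pecam1, Abcb1a, Mfsd2a, Slco1a4, Slco1c1, Itm2a and Ly6c1. They were given as a list of gene symbols, and all 10 were found among the 25834 genes of the deposited count table. The counts come from RNA-seq of the hippocampus of 4 control and 4 SAP97-cKO male mice, with 1 library per mouse. SAP97-cKO mice carried floxed SAP97 alleles (the gene Dlg1) and one Nestin-cre allele (Nestin-cre+/-; SAP97fl/fl), with the Nestin-cre line on a C57Bl/6 background. The Nestin promoter drives Cre in precursors of neurons and glia, a lineage that does not include the endothelium, although Nestin itself is also known from vascular cells. Controls were littermates that were Nes-cre+/-, SAP97fl/fl or wild-type, and which of these each control library was is not given in the sources used here, nor is the age of the sequenced mice.

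The blood-brain barrier is formed by endothelial cells that are sealed to each other by tight junctions and that carry little vesicular traffic. Nutrients and hormones enter the brain through transporters in these cells, and efflux pumps return many lipophilic molecules to the blood. Pericytes, astrocyte endfeet and Wnt/beta-catenin signalling from neural cells are known to maintain this state. In whole hippocampus the endothelium is a minor part of the tissue, so that fewer endothelial cells and less RNA per endothelial cell cannot be told apart in these counts.

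The promoters of the 3 genes with the lowest p-values in the comparison below, Slc2a1, Itm2a and Slco1c1, are shown as the bases upstream of the gene starts of both RefSeq and GENCODE M21 (GRCm38.p6, gene strand, 5′ to 3′). Capitals mark a match to 1 of 3 core motifs, searched on both strands: CAGGAA (an ETS factor core), CTTTGA (a TCF/LEF core) and TGTTTA (a forkhead core).
Slc2a1 promoter, chr4:119108495-119108710, plus strand: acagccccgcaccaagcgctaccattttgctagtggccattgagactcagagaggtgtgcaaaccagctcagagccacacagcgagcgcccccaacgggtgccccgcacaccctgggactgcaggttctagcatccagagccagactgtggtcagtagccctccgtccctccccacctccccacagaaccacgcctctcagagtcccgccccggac
Itm2a promoter, chrX:107403377-107403610, minus strand: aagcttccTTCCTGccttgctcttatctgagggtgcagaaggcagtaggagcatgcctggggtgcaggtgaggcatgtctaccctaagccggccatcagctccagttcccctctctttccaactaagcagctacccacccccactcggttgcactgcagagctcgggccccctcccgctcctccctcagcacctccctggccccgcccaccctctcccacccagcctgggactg
Slco1c1 promoter, chr6:141524104-141524353, plus strand: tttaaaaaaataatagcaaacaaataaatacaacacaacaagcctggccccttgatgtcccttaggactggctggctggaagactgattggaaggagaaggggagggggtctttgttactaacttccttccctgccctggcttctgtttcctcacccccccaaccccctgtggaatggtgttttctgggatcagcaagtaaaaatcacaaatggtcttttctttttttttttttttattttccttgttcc
The Slc2a1 and Itm2a stretches held 63.9% and 63.7% G and C, and the Slco1c1 stretch 42.8%. The printed Itm2a promoter held 1 CAGGAA, which appears in capitals as its reverse complement, and the other 2 held none of these letters. Promoters of 9 of the 10 genes were in the RefSeq table, which had no entry for Pecam1. Over the 250 bases upstream of the RefSeq start, CAGGAA was present in 1 of these 9 genes, against 25.7% of 32851 mouse promoters. CTTTGA was present in 2 of 9 against 13.8%, and TGTTTA in 3 of 9 against 12.03%. Abcb1a counts for both of these motifs. Its RefSeq promoter was read at chr5:8566841-8567090, far upstream of its GENCODE start at chr5:8660077. These counts carry no test.

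Dlg1, the targeted gene, was measured first. TMM-normalized counts of Dlg1, which are counts scaled by edgeR for composition, were 4128, 4550, 3983 and 4691 in control replicates 1 to 4 and 2353, 3065, 2144 and 2009 in SAP97-cKO replicates 1 to 4. The groups did not overlap, and Dlg1 fell in SAP97-cKO hippocampi by 0.86 on the log2 scale (SE 0.124, adjusted p = 0.143 in edgeR's quasi-likelihood test, at the study's threshold of an FDR under 0.25). The counts cover the whole gene and not the deleted part alone. Without control replicate 2, SAP97-cKO replicate 3 or SAP97-cKO replicate 4, neither Dlg1 nor any other gene passed this threshold. Library totals were 37388177 to 37426572 counts. Of 16251 genes with enough counts to be tested, 46 fell in SAP97-cKO hippocampi at this threshold (0.283%) and 2 rose (0.0123%). At an unadjusted p under 0.05, 1139 genes were lower (7.01%) and 768 higher (4.73%), a split that was 1683 lower and 409 higher when libraries were compared without TMM scaling. The counts of the 2 groups did not overlap in 564 genes lower in SAP97-cKO hippocampi (3.47%) and in 451 higher (2.78%).

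None of the 10 endothelial and barrier genes passed the threshold, with 0 called in either direction. All 10 had log2 fold changes below 0, as did 52.8% of all genes tested, though the value of Flt1 was so near 0 that its sign turned with DESeq2 size factors. Their median log2 fold change was -0.22, beside -0.01 over all genes, and leaving out SAP97-cKO replicate 1 made it -0.37 while leaving out SAP97-cKO replicate 4 made it -0.14. At an unadjusted p under 0.05, 3 of the 10 were lower in SAP97-cKO hippocampi (Slc2a1, Itm2a and Slco1c1) and 0 were higher. The counts of the 2 groups did not overlap for 1 of the 10, Slc2a1. These 10 genes share libraries and cells, so they are not independent of each other. DESeq2 called 3 of them lower (the same 3 genes), in a fit that called 588 of all genes lower (3.62%). Leaving out SAP97-cKO replicate 1, edgeR called 4 of the 10 lower, Cldn5, Itm2a, Ly6c1 and Slc2a1, where it called 450 of 16474 genes lower (2.73%), and 8 of the 10 were lower at an unadjusted p under 0.05, beside 7.65% of all genes. Leaving out control replicate 1 gave 2 calls, Itm2a and Slc2a1, where 960 of 16469 genes were called lower (5.83%), and limma-voom with all 8 libraries called 0.

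**Figure D1:**
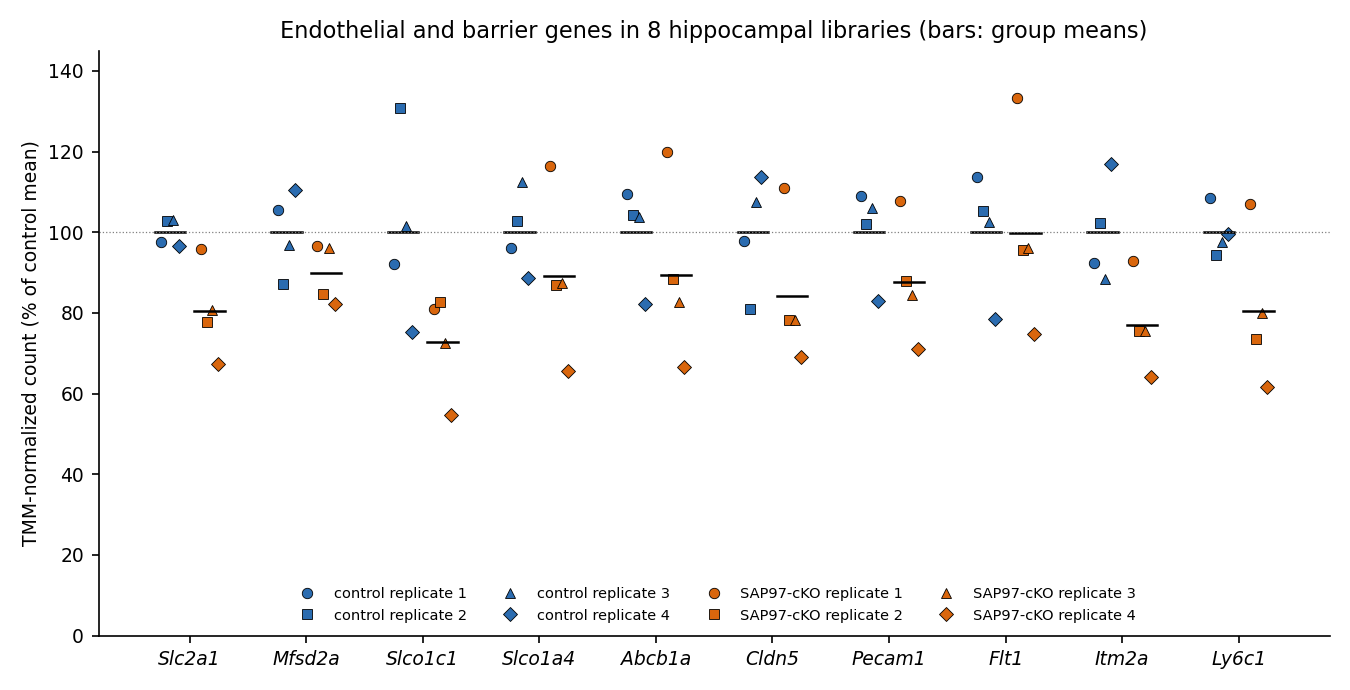
TMM-normalized counts of the 10 genes in each of the 8 libraries, on the y axis as a percent of the gene's control mean, with controls in blue, SAP97-cKO in orange, 1 symbol per replicate and short black bars at group means. SAP97-cKO replicate 4 (orange diamonds) lies lowest of all 8 libraries for 10 of 10 genes, and SAP97-cKO replicate 1 (orange circles) highest of its group for 9.

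Among the carriers that bring molecules into the brain, Slc2a1 differed most clearly between the groups relative to its spread. Slc2a1 (chr4:119108711-119137983, plus strand) encodes GLUT1, the glucose transporter of the barrier, and is also made by astrocytes. Its TMM-normalized counts were 4130, 4355, 4366 and 4095 in control replicates 1 to 4, a coefficient of variation of 3.39%, and 4060, 3289, 3416 and 2855 in SAP97-cKO replicates 1 to 4. All 4 SAP97-cKO libraries lay below the lowest control, replicate 1 narrowly so. The means were 4236 ± 144 and 3405 ± 498 (SD, n = 4 each), 19.6% lower in SAP97-cKO hippocampi. The log2 fold change was -0.32 (SE 0.097, unadjusted p = 0.0082, adjusted p = 0.341, edgeR), and the exact two-sided permutation test gave p = 0.0286, the smallest value that the 70 assignments of 4 and 4 libraries allow.

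Slco1c1 (chr6:141524368-141570177, plus strand) encodes OATP1C1, a carrier of thyroxine that is found in barrier endothelium, astrocytes and the choroid plexus. Its TMM-normalized counts were 2937, 4177, 3244 and 2403 in control replicates 1 to 4 and 2586, 2637, 2312 and 1744 in SAP97-cKO replicates 1 to 4. The control replicates were spread widely, with replicate 2 highest, and all 4 SAP97-cKO libraries lay below the control mean while the groups overlapped. With means of 3190 ± 744 and 2320 ± 410 (SD, n = 4 each), Slco1c1 had the largest fold change of the 10 genes, a log2 value of -0.46 (SE 0.171, adjusted p = 0.373, edgeR). The order of the 4 controls was also that of Ttr, a choroid plexus gene with 40098, 232258, 129444 and 4705 counts in control replicates 1 to 4, while in SAP97-cKO replicates 1 to 4 Ttr had 18275, 79675, 45710.5 and 2158 counts, an order that differed from that of Slco1c1 in its middle libraries. With the mean level of 12 choroid plexus genes as a covariate in edgeR, an alternative chosen after seeing the data, the log2 fold change of Slco1c1 was -0.24 (SE 0.093, adjusted p = 0.406). The unadjusted p of Slco1c1 was 0.026 in that edgeR fit and 0.022 without the covariate. Leaving out control replicate 2 gave -0.30, leaving out SAP97-cKO replicate 4 gave -0.34, and in both cases the unadjusted p was above 0.05.

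Mfsd2a (chr4:122946850-122961188, minus strand) encodes a lysophospholipid transporter that carries docosahexaenoic acid into the brain and keeps transcytosis low. Control replicates 1 to 4 held 954, 787, 875 and 998.7 TMM-normalized counts of Mfsd2a, and SAP97-cKO replicates 1 to 4 held 873, 765, 869 and 742. Mfsd2a had the narrowest spread in SAP97-cKO libraries, a coefficient of variation of 8.44%, and its groups overlapped. The means of 904 ± 93.1 and 812 ± 68.5 (SD, n = 4 each) differed by a log2 value of -0.15 (SE 0.095, adjusted p = 0.526, edgeR).

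Slco1a4 (chr6:141805440-141856199, minus strand) encodes OATP1A4, a carrier of organic anions and steroid conjugates. Its TMM-normalized counts were 1369, 1462, 1599 and 1263 in control replicates 1 to 4 and 1656, 1238, 1244 and 932 in SAP97-cKO replicates 1 to 4. SAP97-cKO replicate 1 was the highest of all 8 libraries and the other 3 lay below every control, so that the group means of 1423 ± 143 and 1268 ± 297 (SD, n = 4 each) were close. The log2 fold change of Slco1a4 was -0.17 (SE 0.150, adjusted p = 0.652, edgeR).

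Abcb1a (chr5:8660077-8748575, plus strand) encodes P-glycoprotein, the main efflux pump of the barrier. Control replicates 1 to 4 held 1404, 1336, 1329 and 1054 TMM-normalized counts of Abcb1a, and SAP97-cKO replicates 1 to 4 held 1537, 1132, 1060 and 853. The 2 groups overlapped at both ends of the control range, with SAP97-cKO replicate 1 above every control and replicate 4 below every control. The log2 fold change was -0.16 (SE 0.161, adjusted p = 0.685, edgeR), with means of 1281 ± 155 and 1145 ± 286 (SD, n = 4 each). Reads shared with the related genes Abcb1b and Slco1a5 could have been split between copies in the authors' counting of Abcb1a and Slco1a4, but these copies held at most 122 and 92 counts in a library.

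Of the junction genes, Cldn5 and Pecam1, neither passed the test. Cldn5 (chr16:18776847-18778262, plus strand) encodes claudin-5, the main claudin of endothelial tight junctions. Its TMM-normalized counts were 1309, 1084, 1438 and 1521 in control replicates 1 to 4 and 1485, 1048, 1046 and 923 in SAP97-cKO replicates 1 to 4. The last 3 of these lay below every control, and SAP97-cKO replicate 1 lay near the top of the control range. The means were 1338 ± 190 and 1125 ± 247 (SD, n = 4 each), a log2 fold change of -0.25 (SE 0.151, adjusted p = 0.522, edgeR), which became -0.41 without SAP97-cKO replicate 1 (adjusted p = 0.234).

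Pecam1 (chr11:106654217-106750628, minus strand) encodes CD31, an adhesion molecule at endothelial cell borders. Control replicates 1 to 4 held 830, 778, 809 and 632 TMM-normalized counts of Pecam1, and SAP97-cKO replicates 1 to 4 held 821, 671, 643 and 542. The lowest control, replicate 4, lay below 3 of the 4 SAP97-cKO libraries. The log2 fold change was -0.19 (SE 0.131, adjusted p = 0.570, edgeR), with means of 762 ± 89.6 and 669 ± 115 (SD, n = 4 each).

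Flt1 (chr5:147561604-147726011, minus strand) encodes VEGFR1, a receptor that binds VEGF-A and, in its soluble form, holds it away from the main signalling receptor. Its TMM-normalized counts were 2628, 2431, 2366 and 1812 in control replicates 1 to 4 and 3076, 2210, 2218 and 1724 in SAP97-cKO replicates 1 to 4. Flt1 had both its highest and its lowest library in the SAP97-cKO group, and the group means were nearly equal, at 2309 ± 350 and 2307 ± 562 (SD, n = 4 each). Its log2 fold change was -0.00 with TMM (SE 0.166, adjusted p = 0.998, edgeR) and took the other sign with DESeq2 size factors, so no direction is given for it. The 95% interval of its log2 fold change ran from -0.37 to 0.37.

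Itm2a (chrX:107397099-107403376, minus strand) encodes a transmembrane protein of the BRICHOS family that is enriched in brain endothelium. Control replicates 1 to 4 held 2214, 2447, 2116 and 2796 TMM-normalized counts of Itm2a, and SAP97-cKO replicates 1 to 4 held 2225, 1806, 1807 and 1535. SAP97-cKO replicates 2, 3 and 4 lay below every control, and replicate 1 was within the control range. The means of Itm2a were 2394 ± 302 and 1843 ± 285 (SD, n = 4 each), 23.0% lower in SAP97-cKO hippocampi. The log2 fold change was -0.38 (SE 0.120, unadjusted p = 0.010, adjusted p = 0.347, edgeR), and the exact two-sided permutation test gave p = 0.0857.

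Ly6c1 (chr15:75044018-75048830, minus strand) encodes a small surface protein anchored by a lipid that marks brain endothelium and some leukocytes. Control replicates 1 to 4 held 1152, 1001, 1034 and 1056 TMM-normalized counts of Ly6c1, and SAP97-cKO replicates 1 to 4 held 1136, 779, 849 and 653. The controls lay close together, with a coefficient of variation of 6.08%, while the SAP97-cKO libraries were spread at 24.0%, and 3 of them lay below every control. The means were 1061 ± 64.5 and 854 ± 205 (SD, n = 4 each), a log2 fold change of -0.31 (SE 0.145, adjusted p = 0.430, edgeR) that became -0.47 without SAP97-cKO replicate 1 (adjusted p = 0.189). Ly6c2, a near-identical copy of Ly6c1, held at most 2 counts in a library.

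**Figure D2:**
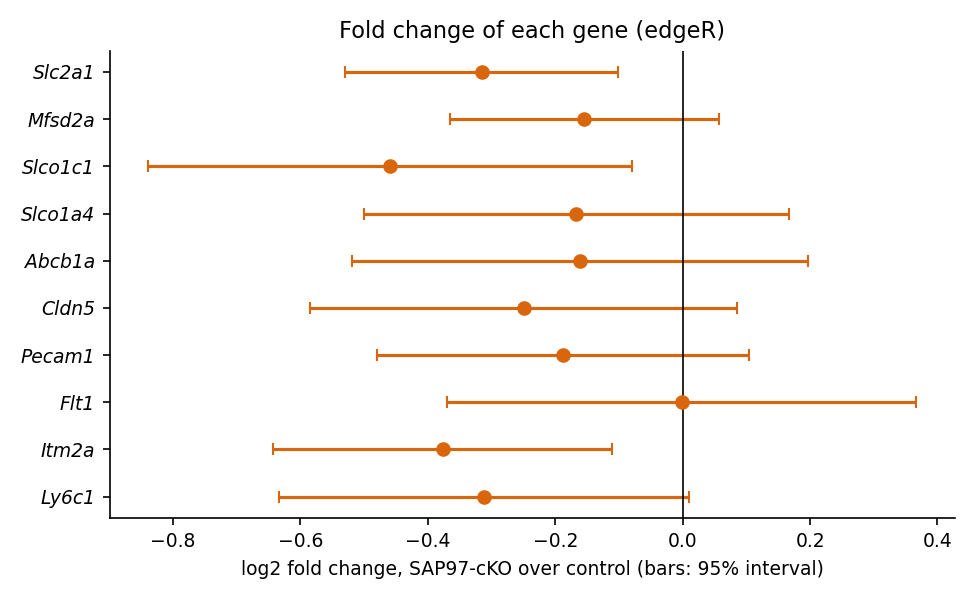
Log2 fold change of each of the 10 genes, SAP97-cKO over control, on the x axis (points, edgeR's quasi-likelihood fit), with bars for the 95% interval. The intervals of Slc2a1, Slco1c1 and Itm2a lie below 0, the interval of Ly6c1 reaches 0.01, and Flt1 is centred on 0.

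The 10 genes largely shared the top and bottom of their order among the SAP97-cKO libraries, and less so among the controls. Taken as a percent of each gene's control mean, the median over the 10 genes was 102, 102, 103 and 92.7 in control replicates 1 to 4 and 107, 83.6, 81.7 and 67.0 in SAP97-cKO replicates 1 to 4. SAP97-cKO replicate 4 was below every control for 10 of 10 genes, and SAP97-cKO replicates 2 and 3 for 6 each. SAP97-cKO replicate 1 was above the control mean for 6 of the 10 genes and below every control only for Slc2a1. Among the controls, replicate 4 was the lowest for 6 of the 10 genes, and it was the highest for Cldn5, Mfsd2a and Itm2a. By the medians of these 10 genes, 1 SAP97-cKO library lay near the control level, 2 were lower and 1 was lower still. The 10 genes share libraries, so these counts are not 10 separate observations. The share of all genes with a given library below every control was not counted.

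After each group mean was subtracted, the log2 CPM of each gene was set against the mean of the other 9 over the 8 libraries. Pearson's r was highest for Slc2a1 (0.969), Slco1a4 (0.950), Abcb1a (0.942) and Ly6c1 (0.919), followed by Flt1 (0.898) and Pecam1 (0.892). Cldn5 (0.613), Itm2a (0.555), Slco1c1 (0.511) and Mfsd2a (0.318) followed the others less closely. These values describe the 8 libraries, which all 10 genes share, and carry no test. Of 14099 genes outside the list with a mean of at least 1 CPM, the 5 whose pattern was most like that of the 10 genes were Alg6 (r = 0.979), Zfp664 (r = 0.977), Zdhhc20 (r = 0.973), Tmem204 (r = 0.969) and Adgrl4 (r = 0.968). Of these 5, Tmem204 and Adgrl4, with the lowest r, are known from endothelium, and this is not said of Alg6, Zfp664 and Zdhhc20. The 5 are the highest of 14099 correlations over 8 libraries, and whether the pattern is endothelial was not tested.

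Levels were compared between genes only per length, as TMM-normalized CPM per kb of annotated exon. In controls the order was Itm2a at 36.7 ± 4.63, Slc2a1 at 32.3 ± 1.10, Cldn5 at 25.3 ± 3.59, Ly6c1 at 16.9 ± 1.03, Slco1c1 at 16.4 ± 3.83, Mfsd2a at 10.7 ± 1.11, Abcb1a at 6.24 ± 0.755, Slco1a4 at 5.93 ± 0.594, Flt1 at 4.57 ± 0.692 and Pecam1 at 3.27 ± 0.385 (SD, n = 4 each). The control ranges of neighbours overlapped for Itm2a and Slc2a1, for Ly6c1 and Slco1c1, and for Abcb1a and Slco1a4, so the order within these pairs was not set by more than their spread. The SAP97-cKO means had the same order. Exon length was the union over all annotated transcripts, which for Flt1 was 13504 bp and lowers its level where short transcripts dominate.

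**Figure D3:**
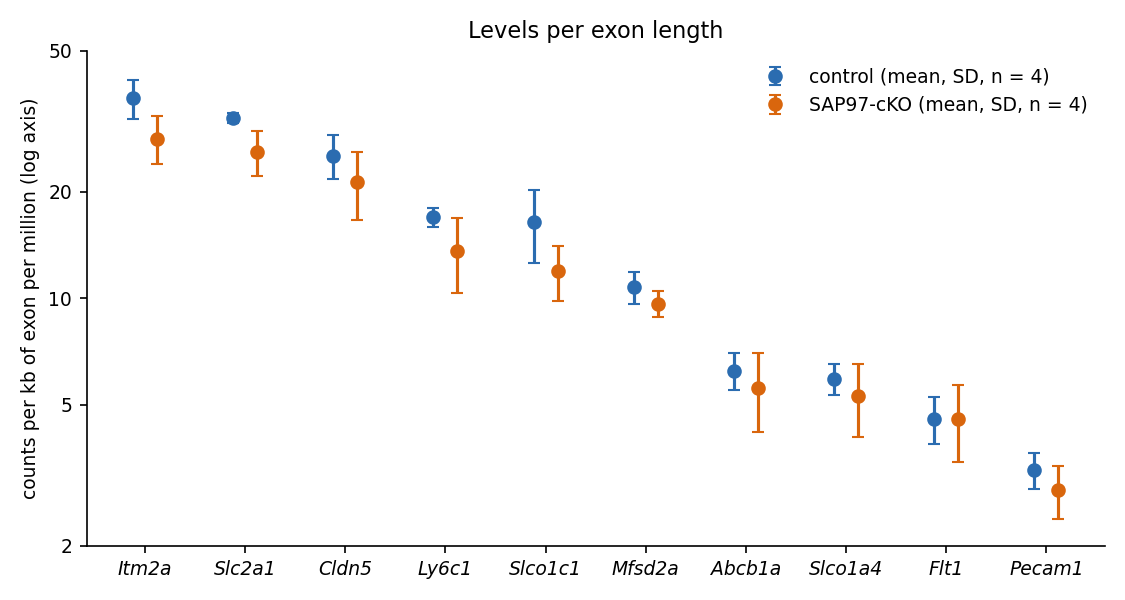
Level of each gene per exon length on a log y axis, in CPM per kb of exon, with the mean and SD of 4 control libraries (blue) and 4 SAP97-cKO libraries (orange). Genes are ordered by control level from Itm2a to Pecam1, and the orange points keep that order.

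To see whether other endothelial genes moved in the same libraries, 20 genes found in endothelium of many organs were counted, all of which were tested. Over all 16251 genes tested, 7.01% were lower and 4.73% higher at an unadjusted p under 0.05. These shares are to be read beside the main count of each list below. The 20 had a median log2 fold change of -0.14, with 3 at an unadjusted p under 0.05, all lower (Ly6a at -0.39, Sox17 at -0.36 and Vwf at -0.54), and 0 past the FDR threshold. Leaving out SAP97-cKO replicate 4 gave a median of -0.07 with 1 lower, leaving out control replicate 2 gave -0.09 with 1 lower, and leaving out SAP97-cKO replicate 1 gave -0.24 with 7 lower, 3 of them past the FDR threshold. Without SAP97-cKO replicate 1, 1260 of 16474 genes were lower at an unadjusted p under 0.05 (7.65%) and 450 at an FDR under 0.25 (2.73%). With the mean meningeal gene level as a covariate in edgeR, taken up below, the median of the 20 was 0.08 with 0 lower. It was -0.11 with 1 lower for the choroid plexus level. The most abundant of the 20, Ptprb and Cd34, had log2 fold changes of -0.03 and -0.07. Their median percent of the control mean was 108, 81.4, 88.4 and 74.9 in SAP97-cKO replicates 1 to 4, the same order of libraries at both ends as for the 10 genes. Their summed counts were 10514 to 12217 in controls and 8513 to 12284 in SAP97-cKO libraries, with none of the 20 at 0 in a library.

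Each of the 10 genes was also expressed per 100 counts of these 20 genes, a scale chosen after the values had been seen. On this scale Slc2a1 was 37.6 ± 2.67 in controls, from 35.03 to 40.6, and 33.1 ± 0.319 in SAP97-cKO libraries, from 32.8 to 33.5 (SD, n = 4 each). Itm2a was 21.3 ± 3.58 in controls, from 18.8 to 26.6, and 17.9 ± 0.375 in SAP97-cKO libraries, from 17.3 to 18.1. Both genes were lower in all 4 SAP97-cKO libraries than in any control, including replicate 1, and the SAP97-cKO libraries lay much closer together than in the TMM-normalized counts. The other 8 genes overlapped between the groups on this scale. Of all genes tested, 172 did not overlap and were lower (1.06%) and 598 did not overlap and were higher (3.68%). With the mean level of the 20 genes as a covariate in edgeR, the log2 fold change of Slc2a1 was -0.17 (SE 0.067, adjusted p = 0.633) and that of Itm2a was -0.26 (SE 0.118, adjusted p = 0.633), while Abcb1a, Slco1a4 and Flt1 turned to 0.08, 0.05 and 0.25, with no gene past the threshold. In this edgeR fit Slc2a1 was lower at an unadjusted p of 0.028 and Flt1 higher at an unadjusted p of 0.037. Of 16251 genes, 678 were lower and 565 higher at an unadjusted p under 0.05.

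The other genes of the barrier were taken by function. Of 13 further junction genes, 2 were lower at an unadjusted p under 0.05, F11r (JAM-A) at -0.44 and Jam3 at -0.40, and 0 were higher, with a median log2 fold change of -0.28 that became -0.11, with 1 lower, when control replicate 2 was left out. With the choroid plexus, pan-endothelial or meningeal level as a covariate in edgeR, the median of the junction genes was -0.08, -0.08 or 0.06. The most abundant junction genes, Ctnnb1 (beta-catenin) and Tjp1 (ZO-1), had 0.08 and -0.09, and both are made by many cell types of the tissue. Of 24 further barrier transporters and receptors tested out of 25, 2 were lower (Abcc4 at -0.50 and Slc22a8 at -0.56) and 1 higher (Slc30a10, a manganese exporter, at 0.26), with a median of -0.05 that lay between -0.08 and 0.00 when single libraries were left out. Spock2 and Slc39a10, the most abundant of these, had 0.18 and 0.16. None of these genes passed the FDR threshold.

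Of 18 genes of the Wnt/beta-catenin pathway that maintains the barrier, 3 were lower at an unadjusted p under 0.05 and 0 higher, with a median of -0.14, which was -0.09 when SAP97-cKO replicate 4 was left out, and 0 past the FDR threshold. Among them were Lef1, a transcription factor of the pathway (log2 fold change -0.61), and Lrp5, a co-receptor (-0.32). The ligands Wnt7a and Wnt7b had -0.06 and 0.17, and the abundant co-receptor Lrp6 had -0.09. Of 19 genes of the VEGF and angiopoietin pathway, in which Flt1 acts, 2 were lower (Angpt2, an antagonist of the Tie2 receptor, at -1.02, and Apln at -0.46) and 1 higher (Angpt1, its agonist, at 0.27), with a median of -0.11 and 0 past the FDR threshold. This median ranged from -0.19, when SAP97-cKO replicate 1 was left out, to -0.02, when SAP97-cKO replicate 4 was. Vegfa had 0.09, the receptor Kdr -0.02, and the abundant co-receptors Nrp1 and Nrp2 had 0.07 and 0.15. Lef1 and Angpt2 did not overlap between the groups, with 134 to 153 counts of Lef1 in controls against 67.5 to 116 in SAP97-cKO libraries, and 54.4 to 96.2 counts of Angpt2 against 24.9 to 52.7. Among the Wnt genes Ctnnb1 did not overlap in the other direction, with 21077 to 22200 counts in controls and 22353 to 23386 in SAP97-cKO libraries, and over all genes 3.47% were lower and 2.78% higher without overlap. Wnt7a, Wnt7b, Vegfa and Kdr were named after their values had been seen.

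Of 12 genes linked to vesicular transport or to a leaky or inflamed endothelium, 9 were tested. At an unadjusted p under 0.05, 5 were lower and 0 higher, beside 7.01% and 4.73% of all genes. The median log2 fold change of the 9 was -0.29, and 0 passed the FDR threshold, with a lowest adjusted p of 0.316 (edgeR). Leaving out SAP97-cKO replicate 3 left 3 of the 9 lower, where 711 of 16462 genes were lower. Leaving out SAP97-cKO replicate 4 left 2, where 614 of 16508 were lower. Cavin1 and Cavin2, coat proteins of caveolae, had -0.51 and -0.70 without overlap between the groups, and Cav1 had -0.32. Over all genes, 3.47% were lower without overlap. With the mean meningeal gene level as a covariate in edgeR, taken up below, the median of the 9 was -0.00 with 0 lower. It was -0.20 with 2 lower for the pan-endothelial level, and -0.30 with 4 lower and 1 higher for the choroid plexus level. Whether these genes fell in endothelium or in other cells was not tested. The abundant Cav2 and Vcam1 had -0.20 and -0.23, and Plvap, the diaphragm protein of leaky vessels, had 0.19. Of 14 genes that mark arteries or veins, Mgp fell (log2 fold change -1.001, SE 0.189, adjusted p = 0.201, edgeR), and Mgp is also known from meningeal and mural cells. That call ended with any of the covariates and when control replicate 2 or 4 or SAP97-cKO replicate 3 or 4 was left out. Ephb4, a venous receptor, had -0.35, the abundant Hey1 and Efnb2 had 0.04 and 0.35, and the median was -0.15, which was -0.08 when control replicate 3 was left out and -0.04 when SAP97-cKO replicate 4 was. DESeq2, which called 3.62% of all genes lower at the same FDR, called lower 1 of the pan-endothelial, 2 of the junction, 2 of the transporter, 3 of the Wnt/beta-catenin, 1 of the VEGF and angiopoietin, 3 of the permeability and 2 of the arterial and venous genes.

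**Figure D4:**
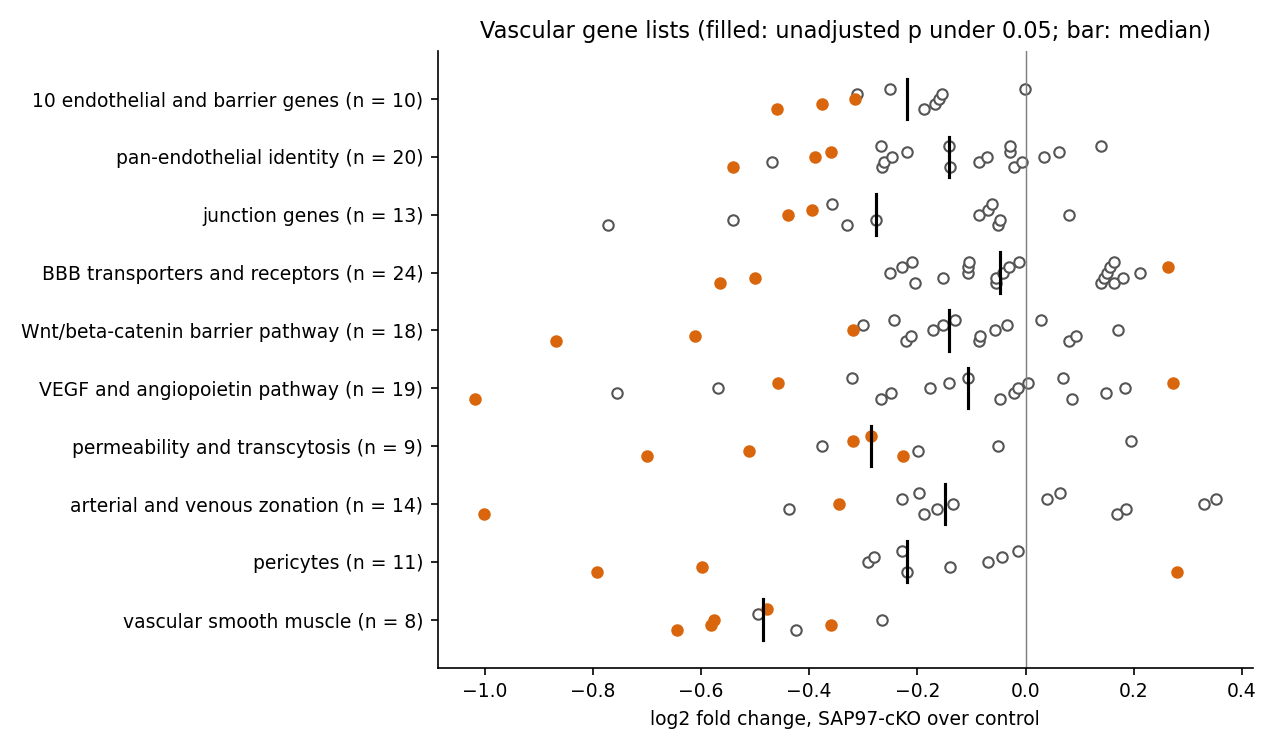
Log2 fold change of every tested gene (points) in the 10 endothelial and barrier genes and in 9 vascular lists, SAP97-cKO over control, with filled points at an unadjusted p under 0.05 in edgeR and a bar at each list's median. Medians run from -0.49 for vascular smooth muscle to -0.05 for the barrier transporters, beside -0.22 for the 10 genes.

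Markers of the other cell types in the dissected tissue were read beside these results. Pericyte genes (11) had a median log2 fold change of -0.22, with Vtn at -0.60 and Anpep at -0.79 lower and Cspg4 at 0.28 higher at an unadjusted p under 0.05, while the abundant Rgs5 had -0.22. The pericyte median was -0.05 when SAP97-cKO replicate 4 was left out. Vascular smooth muscle genes (8) had a median of -0.49, with 5 lower at an unadjusted p under 0.05, among them Tagln at -0.64, Acta2 at -0.48 and Des at -0.58, and Myh11 at -0.27, and leaving out SAP97-cKO replicate 4 left 2 of the genes lower. With the meningeal level as a covariate in edgeR, taken up below, the smooth muscle median was -0.22 with 0 lower. It was -0.34 with 1 lower for the pan-endothelial level and -0.50 with 4 lower for the choroid plexus level. The pericyte median was 0.15, 0.05 and -0.13 with these covariates in the same order. Their median percent of the control mean in SAP97-cKO replicates 1 to 4 was 108, 85.2, 94.5 and 54.6 for pericytes and 89.0, 62.0, 76.2 and 56.7 for smooth muscle, so SAP97-cKO replicate 4 was the lowest library for these genes as well. Meningeal fibroblast genes (20) summed to 14609 to 25848 counts in controls and 8069 to 13378 in SAP97-cKO libraries, without overlap, and 7 of them fell past the FDR threshold, with a median of -1.08 and with Serping1 at -1.03, Ogn at -1.32 and Col1a2 at -1.01. On this list, Serping1, Ogn, Col1a2, Col3a1, Slc6a13, Slc22a6 and Aldh1a2 are also among the changed genes that the study reported from these libraries. The lists were chosen with earlier results known, so these calls and this sum are not an independent reading of meningeal cells. The count past the threshold was 0 when control replicate 2 or SAP97-cKO replicate 3 or 4 was left out and 16 when control replicate 1 was, with 15 to 17 of the 20 lower at an unadjusted p under 0.05. Choroid plexus genes (12) summed to 17090 to 376466 counts in controls and 9590 to 124927 in SAP97-cKO libraries, with a median of -1.49 and 0 at an unadjusted p under 0.05, and with Ttr at -1.48 and Enpp2 at -1.49. This count changed with the fit, to 12 with replicate number as a block (10 at an FDR under 0.25), 10 when control replicate 4 was left out, 8 when SAP97-cKO replicate 2 was, 3 when control replicate 1 was and 6 without a filter, and the median was -0.70 when control replicate 2 was left out. Over all genes, the block fit had 1142 of 16251 lower at an unadjusted p under 0.05 and 234 lower at an FDR under 0.25. In the other fits, in the order given, 1184 of 16434, 1165 of 16412, 1538 of 16469 and 1375 of 25834 genes were lower at that unadjusted p. None of these marker genes was at 0 in a library. The share of endothelial RNA that came with meningeal or choroid plexus tissue was not tested.

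With the mean level of the 20 meningeal genes as a covariate in edgeR, 0 of the 10 endothelial and barrier genes had an unadjusted p under 0.05, Slco1c1 turned to 0.11, Abcb1a to 0.07 and Flt1 to 0.24, and Slc2a1 was -0.20 and Itm2a -0.15 (adjusted p = 0.999 each). In that fit the log2 fold change of Dlg1 itself was -0.41, and since the summed meningeal level did not overlap between the genotypes, meningeal level and genotype cannot be told apart here. With the choroid plexus genes as a covariate, Slc2a1 was -0.27 and Itm2a -0.39.

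**Figure D5:**
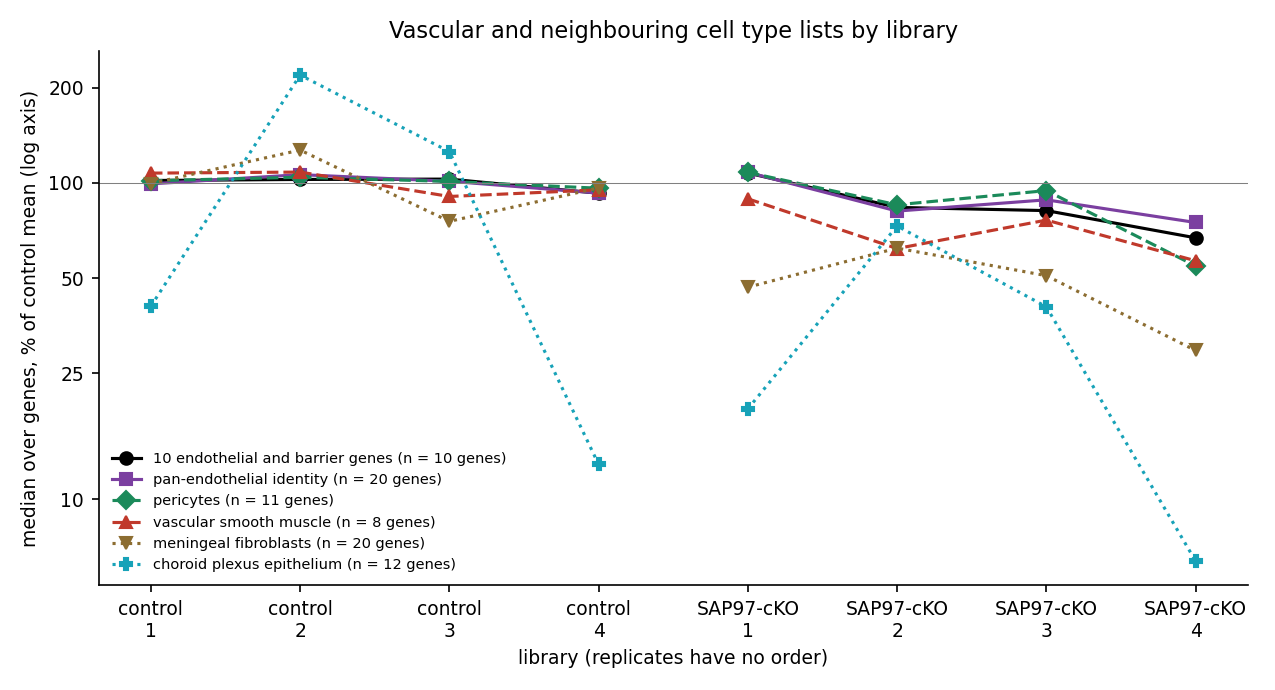
Median over the genes of each list, as a percent of the control mean, on a log y axis for each of the 8 libraries, whose order within a group carries no meaning. The 10 endothelial and barrier genes (black) run at 92.7 to 103 in controls and at 107, 83.6, 81.7 and 67.0 in SAP97-cKO replicates 1 to 4, beside pan-endothelial, pericyte and smooth muscle genes, while meningeal genes lie at 29.5 to 62.2 in SAP97-cKO libraries and choroid plexus genes vary most within each group.

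Neuronal genes chosen for the labelled tissue were present, since 10 hippocampal neuron genes summed to 338234 to 442670 counts per library. Camk2a and Snap25 were the most abundant of them, and such a sum cannot tell the hippocampus from other neuronal tissue. Of these 10, 4 were higher in SAP97-cKO hippocampi at an unadjusted p under 0.05, among them Wfs1 at 0.34, Camk2a at 0.28 and Slc17a7 at 0.24, with a median of 0.15 and Snap25 at -0.03. Leaving out 1 library gave a median of 0.09 (control replicate 4) to 0.24 (SAP97-cKO replicate 2) and 1 to 5 genes higher. It was 5 without control replicate 1 or SAP97-cKO replicate 2, where 1196 of 16469 and 780 of 16412 genes were higher at an unadjusted p under 0.05. Astrocyte and endfoot genes (11), from cells that also make Slc2a1 and Slco1c1, had a median of -0.05, with Gjb6 at -0.53 just past the FDR threshold (adjusted p = 0.2496, edgeR), a call that ended with DESeq2 size factors, with the choroid plexus, meningeal or pan-endothelial level as a covariate and when any library but control replicate 1 or SAP97-cKO replicate 1 was left out, and with Aqp4, the water channel of endfeet, at 0.43, and Slc1a2 and Slc1a3 at 0.11 and 0.02. Microglia genes (8) had 0 at an unadjusted p under 0.05 and a median of 0.02, which was -0.02 without TMM scaling and -0.07 to 0.12 when 1 library was left out, with the abundant Csf1r at 0.05. Erythroid and blood genes, 5 tested out of 9, had a median of -0.55, with Hbb-bt at -0.77 and Hba-a2 at -0.61 lower at an unadjusted p under 0.05, and Hbb-bs and Hba-a1 at -0.55 and -0.37. The median was -0.21 when control replicate 4 was left out, and 0 of these genes were lower then or when SAP97-cKO replicate 1 or 4 was left out. Control replicate 4, the library with the most blood RNA (5682 counts over the 9 genes), was the lowest control for 6 of the 10 endothelial and barrier genes.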

How the data were processed

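Hippocampal RNA from one hemisphere was sequenced for 4 control and 4 SAP97-cKO male mice. Per the methods and the submitters' processing notes, the authors aligned reads to GRCm38.p5 (mm10) with STAR 2.5.3a. Their PORT pipeline removed ribosomal and mitochondrial reads, resampled libraries to a common depth and counted reads on Ensembl genes. The deposited values are whole-number counts per gene, and 15 mitochondrial genes still held counts. Whether the counting used strand is not given in the sources used here. Antisense genes overlap Slc2a1 and Abcb1a and held at most 2 and 7 counts in a library. The table also holds the authors' own log2 fold changes, p-values and q-values, which were not used. It holds 0 other columns of per-sample values. No library repeated another, the chi-square per gene between pairs being 9.63 to 72.0.

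Genes were kept by edgeR's filterByExpr (minimum count 10, minimum total 15), which left 16251 of 25834 genes. Libraries were scaled by TMM (factors 0.964 to 1.03). Both genotypes entered the quasi-likelihood fit of edgeR 4.0.16 (R 4.3.3) without covariates, with adjustment by Benjamini-Hochberg across the tested genes, at the study's FDR of 0.25. The standard error is the size of the log2 fold change divided by the square root of F. Single genes were compared by exact permutation tests in scipy 1.17.1. The p-values measure the spread between mice. The edgeR step was tested on simulated counts with 200 changed genes. Alternatives were limma-voom (limma 3.58.1), DESeq2 1.42.0, DESeq2 size factors, no scaling, no filter, a replicate block, an FDR of 0.05, each library left out, and pan-endothelial, meningeal or choroid plexus covariates.

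The 10 genes and the 15 other lists (pan-endothelial, junction, barrier transporter, Wnt/beta-catenin, VEGF and angiopoietin, permeability, arterial and venous, pericyte, smooth muscle, meningeal, choroid plexus, blood, microglia, astrocyte and neuron genes) were chosen with earlier results of these data known. All 220 list entries were found, 4 of them by Ensembl ID because the table uses older symbols (Nectin2, Cavin1, Cavin2, Cavin3). Genes named from a list are the up to 3 with the smallest p in each direction at an unadjusted p under 0.05 and the 2 most abundant, except for some that are not reported here. The 5 most similar genes are those with the highest correlation. Positions are from GENCODE M21 (GRCm38) and promoters from RefSeq (GRCm38.p6). Plots were drawn with matplotlib 3.10.9.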

Additional observations from a re-analysis of the deposited data

How the results depend on the processing

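Of the values of the 10 genes under all other settings, 144 kept both direction and side of the FDR threshold, 16 changed sign and 10 passed the threshold. Over all genes, 48 were called at an FDR under 0.25, against 1033 with DESeq2, 104 without a filter, 95 without scaling, 16 with the choroid plexus covariate (chosen after seeing the data) and 0 with the meningeal or pan-endothelial covariate or at an FDR of 0.05. At an unadjusted p under 0.05, 678 genes were lower and 565 higher with the pan-endothelial covariate, and 270 and 408 with the meningeal one. Leaving out 1 library gave 0 (without control replicate 2 or SAP97-cKO replicate 3 or 4) to 1675 (without control replicate 1), with 711 without SAP97-cKO replicate 1. Of the 10 endothelial and barrier genes, 0 were called, against 3 with DESeq2 (adjusted p = 0.132 for Slc2a1, 0.143 for Itm2a and 0.199 for Slco1c1) and 0 to 4 when a library was left out, with 4 without SAP97-cKO replicate 1 and 2 (Itm2a and Slc2a1) without control replicate 1. The count at an unadjusted p under 0.05 was 3, against 0 with the meningeal covariate and 2 to 8 when a library was left out (2 without SAP97-cKO replicate 4, 8 without SAP97-cKO replicate 1). With the pan-endothelial covariate it was 2, of which Slc2a1 was lower and Flt1 higher. The median log2 fold change of the 10 genes was -0.37 to -0.14 when a library was left out. Dlg1 was -0.41 with the meningeal and -0.83 with the pan-endothelial covariate (adjusted p = 0.999 and 0.633, edgeR), and -0.9999 to -0.78 when a library was left out, past the threshold except without control replicate 2, SAP97-cKO replicate 3 or SAP97-cKO replicate 4. Signs changed for Flt1 (0.0032 with DESeq2, 0.0033 with its size factors, 0.0075 without a filter, 0.11, 0.24 and 0.25 with the choroid plexus, meningeal and pan-endothelial covariates, and -0.16 to 0.12 when a library was left out), Abcb1a (0.0706 and 0.0802 with the meningeal and pan-endothelial covariates), Slco1a4 (0.0515, pan-endothelial) and Slco1c1 (0.11, meningeal). The cause was not tested. With replicate number as a block, 256 genes were called and 1 of the 10, Slco1c1 (adjusted p = 0.140, edgeR). No label says that a number marks a shared litter or day, and the deviations of same-numbered libraries had correlations of -0.06, 0.20, 0.09 and 0.26, not all over 0.1, so the numbers were not used as pairs, although 6 of 8 libraries correlated best with their own number, which is a hint from the data and not from the design. With 4 mice per group, differences of the size seen for Flt1, Pecam1 or Mfsd2a were within the spread between mice.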
